A study of Homo sapiens with 6 samples.

Results

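The genes described here are 28 genes of cholesterol synthesis, sterol sensing and sterol traffic, taken by symbol from the deposited count table of 31582 genes. They were picked by function, but with earlier results of these data known. All 28 were among the 16394 genes that passed the filter on low counts and were tested. The study sequenced polyadenylated RNA of the human breast cancer line MDA-MB-231, which is mesenchymal and lacks hormone receptors. The libraries came from cells carrying an shRNA against CALR (3 libraries, CALR_KD1 to CALR_KD3) or from control cells that the labels call NTC (3 libraries, Ctrl_1 to Ctrl_3). Both kinds of cell were grown in medium with fetal bovine serum and collected before full confluence. The labels give no shRNA sequence and do not say whether a line was a clone or a pool, or whether libraries came from separate cultures, so the p-values measure only the spread between these libraries. CALR encodes calreticulin, which binds calcium and helps glycoproteins fold in the endoplasmic reticulum (ER).

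Cholesterol is built from acetyl-CoA. The mevalonate arm makes isoprene units and joins them to farnesyl diphosphate, and the sterol arm turns farnesyl diphosphate into squalene, lanosterol and finally cholesterol. The transcription factor SREBP2 (gene SREBF2) controls most of these enzymes. Its precursor sits in the ER membrane bound to the escort SCAP. When ER cholesterol is high, INSIG proteins hold the pair there, and when it is low SCAP carries SREBP2 to the Golgi, where proteases release its active part. Promoters that answer to SREBP2 usually pair a sterol regulatory element with binding sites for the cofactors NF-Y and Sp1.

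For 25 of the 28 genes, RefSeq promoter windows of GRCh38.p14 were at hand, each running from 250 bases before a transcription start to 50 bases after it (31 windows). Motifs were searched on both strands. The letters CCAAT, the NF-Y motif, stood in a window of 18 of the 25 genes (72%), and in 42.1% of the 15843 protein-coding genes with such windows. GGGCGG, an Sp1 motif, stood in 23 of 25 (92%) against 64.3%. The exact sterol element TCACNCCAC was in 1 of 25, the gene of SREBP2 itself, and in 1.51% of coding genes. Genes with several windows had more chances of a match. The coding genes were counted whether or not they were expressed in these cells, while all 28 genes passed the filter on low counts. The shares are therefore of unlike sets. The stretch of SREBF2 with the sterol element is shown first. It is followed by the CCAAT match nearest upstream of the start in the 7 genes with a window that were higher in knockdown at an unadjusted p below 0.05. Stretches run 5′ to 3′ on the gene's strand, with the match in capitals (ATTGG is CCAAT on the other strand). Starts here are those of the RefSeq windows and differ from the GENCODE 29 gene bounds given with some genes later. The stretches of FDPS, MVK, NSDHL and IDI1 lie inside the GENCODE bounds of their genes and that of MVD overlaps its edge. They lie at chr22:41832962-41832990 (SREBF2, plus strand), chr1:155308803-155308831 (FDPS, plus strand), chr21:46228908-46228936 (LSS, minus strand), chr16:88663160-88663188 (MVD, minus strand), chr12:109573736-109573764 (MVK, plus strand), chr1:162790638-162790666 (HSD17B7, plus strand), chrX:152830967-152830995 (NSDHL, plus strand) and chr10:1048957-1048985 (IDI1, minus strand).
SREBF2: tgacgcgccaTCACCCCACgcaccgcttc
FDPS: tcccgcgggcacATTGGgagttgtagtct
LSS: cgcggcgctctgATTGGttgcgtgggcgt
MVD: ggctcgcacgggCCAATcctgtggtagcg
MVK: tcgcgcgctctgATTGGctggcctgaagt
HSD17B7: tggcggactgagATTGGagggatcagctc
NSDHL: cgccgagctgggCCAATcctcttggtgga
IDI1: ctggcgcgagcgATTGGctgcgcggcccg
Of the 9 genes below that threshold, 7 had a window and all 7 held CCAAT, as did 11 of the other 18 genes with a window. These matches are letters in a window and were not tested for binding.

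CALR was at 493, 66.4 and 110.1 CPM (counts scaled to library size and a TMM normalization factor) in knockdown libraries 1 to 3 and at 1213, 979 and 926 CPM in control replicates 1 to 3. The remaining transcript was 47.5%, 6.39% and 10.6% of the control mean, so replicate 1 kept the most. Library totals lay between 34639090 and 42425310 counts. No gene of the whole table passed edgeR's quasi-likelihood test after Benjamini-Hochberg adjustment (smallest adjusted p 0.115). DESeq2 called 290 genes higher and 240 lower after adjustment (1.77% and 1.46%), and at an unadjusted p below 0.05 edgeR gave 1340 genes higher and 1206 lower in knockdown. The mesenchymal marker VIM was at 1697 to 3177 CPM, and the epithelial cadherin CDH1 and the estrogen receptor ESR1 were at no more than 1.14 and 0.596 CPM in any library. PGR, FOXA1 and EPCAM were at no more than 2.03, 2.20 and 8.71 CPM. Other luminal markers were well expressed, with KRT8 at 149 to 231, KRT18 at 154 to 223, KRT19 at 70.2 to 127 and XBP1 at 101 to 184 CPM. ERBB2 was at 27.8 to 46.7 CPM. Markers of other cell types were low, with summed levels over 6 blood markers of 0.828 to 1.48 CPM in knockdown and 1.35 to 1.40 CPM in control libraries, over 8 fibroblast and endothelial markers of 11.7 to 17.9 and 9.72 to 19.6 CPM, and over 9 liver and steroid gland markers of 0.298 to 1.31 and 1.43 to 2.65 CPM. HBB, a further blood marker, and TTR, a further liver marker, were not among the deposited genes. Every deposited gene had some counts, so none of the other markers could be at 0 in every library. PTPRC, PDGFRA, ALB and STAR were each at 0 in at least 1 library, and the highest of these 4 in any library was PTPRC at 0.257 CPM. Of all these markers, 5 had separate groups and an unadjusted p below 0.05 in edgeR. VIM (0.65 ± 0.16), GATA3 (0.48 ± 0.21) and PECAM1 (1.19 ± 0.44) were higher in knockdown, and DCN (−2.23 ± 0.86) and CYP11A1 (−1.83 ± 0.77), both at no more than 2.88 CPM, were lower. The marker lists did not all go one way. Of 10 markers that describe MDA-MB-231, with ESR1 and CDH1 among those low in it, 8 had positive log2 fold changes. At an unadjusted p below 0.05 in edgeR, 3 of these 10 were higher (30%), VIM and GATA3 among them, and 0 lower. Their median was 0.31. The shares of all tested genes were 8.17% higher and 7.36% lower. Of 10 luminal breast markers, GATA3 among them, 1 was higher and 0 lower, with a median of 0.04 and a summed level of 549 to 693 CPM in knockdown and 525 to 693 CPM in control libraries. Of 5 tested fibroblast and endothelial markers 1 was higher and 1 lower, and LUM at 0.49 ± 0.33 and KDR at −0.65 ± 0.37 had overlapping groups. The part of these markers in the results on sterol genes was not tested.

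The sterol genes were on balance higher in CALR knockdown cells, with the highest median in the mevalonate arm and with FDPS, LSS and ACAT2 furthest above the controls at fold changes of 1.96, 1.84 and 1.80. In these bulk libraries, a change in RNA per cell and a change in the share of cells that express a gene cannot be told apart. Because the 28 were chosen with earlier results of these data known, the shares that follow are a description. Of the 28, 23 had a positive log2 fold change (82.1%, against 49.9% of all tested genes). At an unadjusted p below 0.05, 9 were higher (32.1%) and 0 lower, where the shares of all tested genes were 8.17% and 7.36%. The knockdown and control libraries did not overlap for 7 genes, all higher in knockdown (25%, against 11.3% of all genes), and for 0 genes lower in knockdown (11.2% of all genes). The median log2 fold change was 0.32 over the 28 and −0.00072 over all tested genes. After adjustment over all genes 0 of the 28 passed in edgeR, with adjusted p-values from 0.166 to 0.994. DESeq2 put FDPS, FDFT1 and LSS past its adjusted threshold, at 0.0058, 0.040 and 0.040, with 1.77% of all genes called higher by it.

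**Figure D1:**
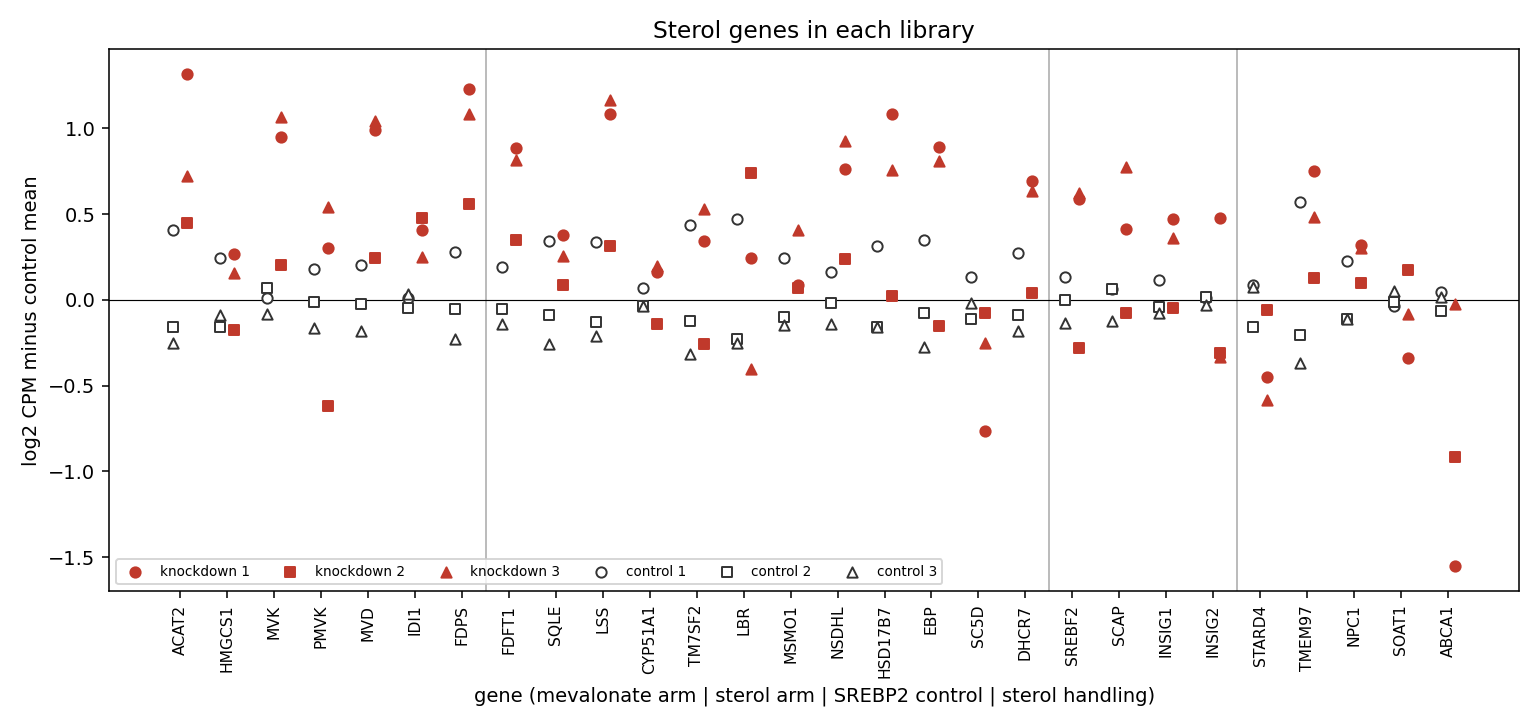
Log2 CPM of each of the 28 genes in every library, less the mean of the 3 control libraries (vertical axis), with genes along the horizontal axis in pathway order and vertical lines between the 4 roles. Filled red symbols are knockdown libraries and open symbols are controls, 1 symbol shape per replicate number. All 3 red symbols lie above all open ones for ACAT2, MVK, MVD, IDI1, FDPS, FDFT1 and NSDHL.

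In the mevalonate arm all 7 enzymes had positive log2 fold changes, with a median of 0.78, and 5 of them were higher at an unadjusted p below 0.05. ACAT2, the cytosolic thiolase that starts the arm by joining 2 acetyl-CoA, was at 256, 140.4 and 169.9 CPM in knockdown libraries 1 to 3 and 136, 92.3 and 86.5 CPM in the controls. Knockdown replicate 1 was far above the rest and replicate 2 only just above control replicate 1. The log2 fold change was 0.85 ± 0.26, unadjusted p = 0.0111 in edgeR. Of the exon bases of ACAT2, 52.3% are shared with genes on the other strand, mainly TCP1 and SOD2, and the strand setting of the counting is not given in the sources used here. TCP1 had a log2 fold change of −0.04 ± 0.14 and SOD2 0.21 ± 0.42, with overlapping groups for both. SOD2 was at 417.5 ± 260 CPM in knockdown and 359.7 ± 138.9 CPM in control libraries, and TCP1 at 263.2 ± 9.48 and 270.3 ± 16.67 CPM (SD). Both were thus above ACAT2 in mean level, and SOD2 varied widely. Whether their reads entered the ACAT2 counts was not tested.

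HMGCS1, the HMG-CoA synthase that follows, was at 99.7, 73.4 and 92.3 CPM against 98.4, 74.3 and 78.0 CPM in control replicates 1 to 3. The groups lay across each other, and the log2 fold change was 0.08 ± 0.19, which was between −0.06 and −0.04 with library size alone and on the FPKM scale (fragment counts scaled to transcript length and depth). MVK, the mevalonate kinase, gave 117, 69.6 and 126 CPM in knockdown and 60.9, 63.6 and 57.2 CPM in control libraries. Its controls were close together and knockdown replicate 2 stood just above them, with replicates 1 and 3 much further up. The log2 fold change was 0.78 ± 0.23 with an unadjusted edgeR p of 0.00751. MVK lies on chromosome 12 at 109573255 to 109598117 (GRCh38, GENCODE 29, plus strand) and starts head to head with MMAB, a cobalamin enzyme gene, whose exons cover 4.72% of the exon bases of MVK. MMAB was at 49.9 ± 18.9 CPM in knockdown and 30.0 ± 5.71 CPM in control libraries (SD, n = 3). Its groups overlapped, at a log2 fold change of 0.74 ± 0.29 and an unadjusted edgeR p of 0.0333.

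PMVK, the phosphomevalonate kinase, had 34.5, 18.2 and 40.7 CPM in knockdown libraries 1 to 3 and 31.7, 27.7 and 25.0 CPM in the controls. Knockdown replicate 2 was the lowest of all 6 libraries and replicate 3 the highest, and the log2 fold change of 0.15 ± 0.28 was smaller than its error, turning to −0.07 without knockdown replicate 3. MVD, which decarboxylates mevalonate diphosphate to isopentenyl diphosphate (chromosome 16, 88651935 to 88663161, minus strand), was at 107, 63.6 and 111 against 61.9, 52.9 and 47.5 CPM. The lowest knockdown library, replicate 2, was just above the highest control. Its log2 fold change was 0.79 ± 0.23 (unadjusted p = 0.00802 from edgeR).

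IDI1, the isopentenyl diphosphate isomerase, differed from the other mevalonate genes in that knockdown replicate 2 was its highest library. It was at 246, 258 and 221 CPM in knockdown and 187, 179.8 and 189.7 CPM in control replicates 1 to 3, with groups fully apart and controls close together. The log2 fold change was 0.38 ± 0.14, unadjusted p = 0.0279 in edgeR. That unadjusted threshold was met in 8 of 17 other fits, and missed, among others, with library size alone (0.25), with no filter, in both FPKM fits, and without knockdown replicate 1 or any 1 of the 3 controls. FDPS, the farnesyl diphosphate synthase (chromosome 1, 155308748 to 155320666, plus strand), was at 641, 403 and 580.2 CPM in knockdown libraries 1 to 3 and 333, 264 and 233 CPM in the controls. All 3 knockdown libraries were above all 3 controls. With a log2 fold change of 0.97 ± 0.22 and an unadjusted p of 0.00177 (adjusted 0.166, edgeR) it had the smallest p of the 28 genes and ranked 173 of 16394. Per length it was also the most abundant of the 28, at 292 ± 53.6 FPKM in knockdown and 164 ± 25.5 FPKM in control libraries in the deposited table. FDPS has processed pseudogenes to which reads could be split, and 18.6% of its exon bases are shared with RUSC1-AS1 on the other strand. That antisense gene was at 1.11 and 0.648 CPM in the 2 groups.

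The sterol arm was more mixed, with 4 of 12 enzymes higher at an unadjusted p below 0.05, 0 lower, 11 positive values and a median of 0.35. FDFT1, the squalene synthase that commits farnesyl diphosphate to sterols, was at 363, 250.3 and 345 CPM in knockdown libraries 1 to 3 and 224, 189.6 and 178 CPM in the controls. The groups were apart, with replicate 2 again the lowest knockdown library, and the log2 fold change was 0.69 ± 0.19 (edgeR unadjusted p = 0.00535). SQLE, the squalene epoxidase, stood at 51.0, 41.6 and 46.9 against 49.8, 36.9 and 32.8 CPM. Control replicate 1 lay within the knockdown range, and the log2 fold change was 0.22 ± 0.20.

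LSS, which closes the ring to lanosterol (chromosome 21, 46188141 to 46228824, minus strand), had 211, 124 and 223 CPM in knockdown and 126, 91.2 and 86.1 CPM in control libraries. Knockdown replicate 2 was just under control replicate 1, and the other knockdown libraries were far above every control. Its log2 fold change was 0.88 ± 0.25, unadjusted p = 0.00712 in edgeR. CYP51A1, the lanosterol demethylase, was at 264, 214 and 271 CPM against 248, 230.3 and 231 CPM, with a log2 fold change of 0.08 ± 0.16 that was −0.06 with library size alone. The annotation gives 79.4% of its exon bases to other transcripts of the same strand too, so its count is uncertain.

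The next step, reduction of the C14 double bond, can be carried out by either of 2 related proteins. TM7SF2 encodes the dedicated reductase, and LBR encodes the lamin B receptor, which has the same activity and also ties heterochromatin to the nuclear lamina. TM7SF2 was at 21.4, 14.1 and 24.3 CPM in knockdown and 22.9, 15.5 and 13.5 CPM in control replicates 1 to 3. LBR was at 62.6, 88.3 and 40.0 against 73.5, 45.2 and 44.5 CPM. The 2 genes moved in opposite ways among the knockdown libraries, LBR being highest and TM7SF2 lowest in replicate 2. The ratio of LBR to TM7SF2 in the deposited FPKM values was 1.30, 2.77 and 0.726 in knockdown libraries 1 to 3 and 1.42, 1.29 and 1.45 in the controls. Transcripts of LBR have a GC content of 41.0% and those of TM7SF2 62.9%. Over all genes, deviations from the control mean correlated with GC content at 0.24, −0.18 and 0.46 in knockdown libraries 1 to 3. The correlations were 0.03, 0.23 and −0.26 in the controls. The part of GC content in this ratio was not tested. Neither gene differed between groups by more than its error, at log2 fold changes of 0.23 ± 0.31 for LBR and 0.20 ± 0.28 for TM7SF2, and LBR was at −0.08 without knockdown replicate 2.

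Removal of the C4 methyl groups uses MSMO1, NSDHL and HSD17B7 in turn. MSMO1, the methyl oxidase, was at 217, 215 and 272 CPM in knockdown and 243, 191 and 185 CPM in control libraries, with overlapping groups and a log2 fold change of 0.19 ± 0.18. NSDHL, the decarboxylating dehydrogenase (X chromosome, 152830967 to 152869729, plus strand), was at 70.2, 48.7 and 78.6 against 46.1, 40.7 and 37.5 CPM. Every knockdown library was above every control, at a log2 fold change of 0.67 ± 0.21 and an unadjusted edgeR p of 0.0111. HSD17B7, the ketoreductase, which has a closely related pseudogene, was at 33.7, 16.1 and 26.8 CPM in knockdown libraries 1 to 3 and 19.7, 14.2 and 14.2 CPM in the controls. Knockdown replicate 2 lay among the controls, and the log2 fold change was 0.67 ± 0.29 (edgeR unadjusted p = 0.0444). It was 0.42 without knockdown replicate 1 and 0.92 without replicate 2, and it met the unadjusted threshold in 8 of 17 other fits. It missed it without knockdown replicate 1 or 3 or control replicate 2 or 3, with library size alone, in limma-voom, with the filter of at least 1 CPM and in both FPKM fits.

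Of the last 3 enzymes, 2 had higher means in knockdown and 1 a lower mean. EBP, the sterol isomerase, was at 128, 62.3 and 121 CPM in knockdown and 88.2, 65.7 and 57.4 CPM in control replicates 1 to 3 (log2 fold change 0.56 ± 0.29). Its replicate 2 was below control replicates 1 and 2. DHCR7, the reductase of the last step, was at 268, 170.1 and 257 against 199.9, 155 and 146 CPM, with a log2 fold change of 0.47 ± 0.22 and an unadjusted edgeR p of 0.0571. SC5D, the lathosterol desaturase that acts between them, had 50.4, 81.1 and 71.8 CPM in knockdown and 93.7, 79.1 and 84.4 CPM in control libraries, at −0.34 ± 0.20. Only knockdown replicate 2 of SC5D reached the control range. The value was 0.06 once the trend of each library with GC content had been taken out, where the median of all genes was 0.08.

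**Figure D2:**
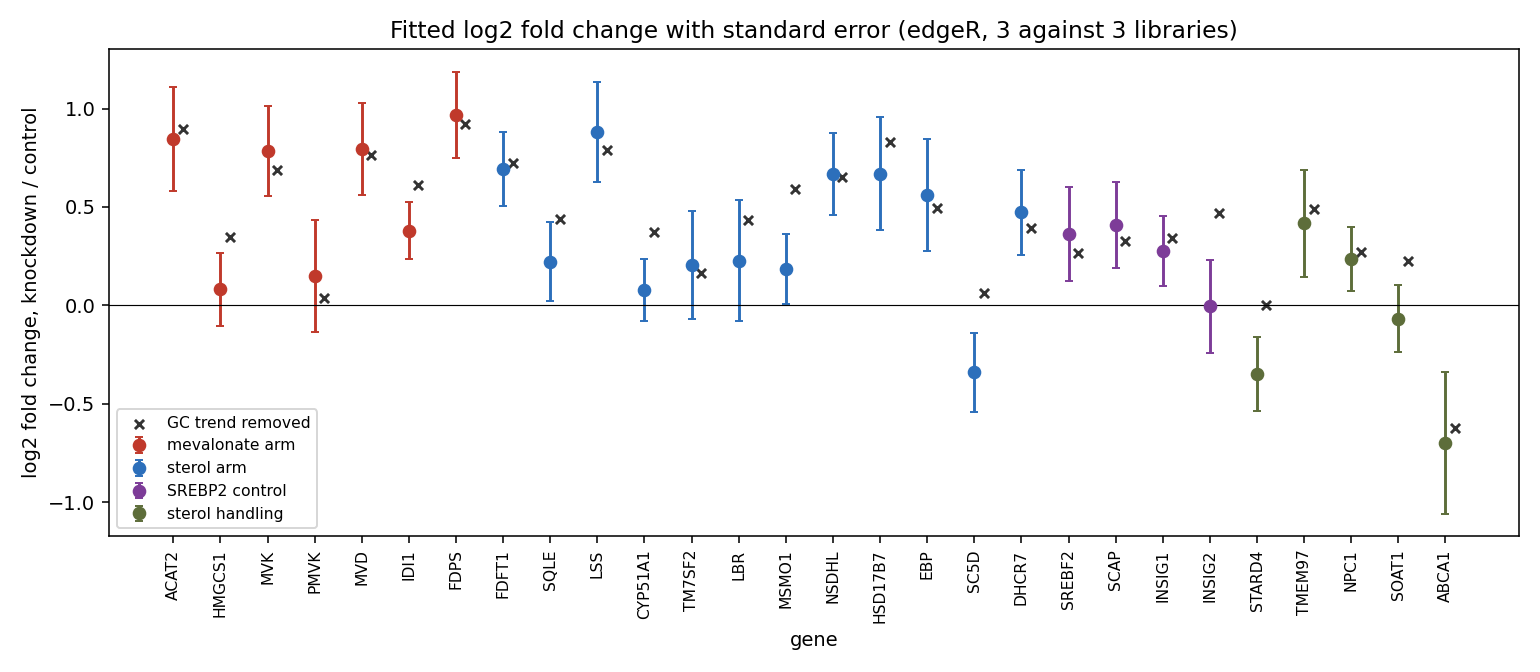
Fitted log2 fold change of knockdown over control (vertical axis) for the 28 genes in pathway order, coloured by role, with bars of 1 standard error from edgeR over 3 against 3 libraries. Crosses give the value from the GC-corrected fit. FDPS is highest at 0.97 and ABCA1 lowest at −0.70, and crosses of SC5D, STARD4, SOAT1 and INSIG2 stand on the other side of 0 from the fitted points. In the GC-corrected fit the median of all genes was 0.08.

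The 4 genes that control SREBP2 showed no call in either direction. SREBF2 was at 183, 101 and 188 CPM in knockdown libraries 1 to 3 and 134, 122 and 111 CPM in the controls. Replicates 1 and 3 were above every control and replicate 2 below every control, for a log2 fold change of 0.36 ± 0.24 (edgeR, adjusted p 0.476), or 0.60 with an adjusted p of 0.026 without knockdown replicate 2. It was 0.24 without replicate 1 and 0.23 without replicate 3. SCAP, the escort, was at 101, 72.2 and 130.0 CPM against 79.3, 79.3 and 69.9 CPM (0.41 ± 0.22), with replicate 2 among the controls and the other knockdown libraries above them. Its log2 fold change was 0.61 without replicate 2 and 0.21 without replicate 3. INSIG1, the retention protein that is itself an SREBP target, was at 155, 108 and 143 CPM in knockdown and 121, 108 and 106 CPM in control libraries. Its replicate 2 was just under control replicate 2, and the log2 fold change was 0.28 ± 0.18, or 0.42 without that library and 0.17 without replicate 1. INSIG2, its homologue, had controls close together, at 41.1, 41.3 and 40.0 CPM, and knockdown libraries at 56.7, 33.0 and 32.3 CPM. Replicate 1 was above and replicates 2 and 3 below all controls, so the log2 fold change of −0.01 ± 0.24 had no steady direction. The ratio of INSIG1 to INSIG2 in FPKM was 2.30, 2.76 and 3.72 in knockdown and 2.48, 2.21 and 2.22 in control replicates 1 to 3.

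Genes that move and store sterols had a median of −0.07 over 5 genes and 0 calls in either direction. STARD4, a cytosolic sterol carrier, was at 46.8, 61.3 and 42.6 CPM in knockdown libraries 1 to 3 and 67.8, 57.1 and 67.3 CPM in the controls, and only replicate 2 reached the control range (−0.35 ± 0.19). The value was 0.0036 after the GC correction, where the median of all genes was 0.08. TMEM97, a sigma receptor of the ER that binds the lysosomal transporter NPC1, gave 79.2, 51.4 and 65.9 against 69.8, 40.9 and 36.5 CPM. Control replicate 1 stood above 2 of the 3 knockdown libraries, and the log2 fold change was 0.42 ± 0.27. It was 0.76 without control replicate 1, past the unadjusted threshold, and 0.30 and 0.24 without control replicates 2 and 3 and 0.26 without knockdown replicate 1. NPC1, which exports cholesterol from lysosomes, was at 257, 220.4 and 254 CPM in knockdown and 240.4, 191 and 190.2 CPM in control libraries (0.24 ± 0.16). SOAT1, the enzyme that esterifies cholesterol for storage, was at 116, 166 and 139 against 143, 145 and 152 CPM with a log2 fold change of −0.07 ± 0.17.

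ABCA1, the pump that exports cholesterol to lipoproteins and a target of the sterol receptor LXR, had the lowest fold change of the 28. It was at 2.77, 4.35 and 8.10 CPM in knockdown libraries 1 to 3 and 8.52, 7.88 and 8.32 CPM in the controls. Replicates 1 and 2 were below every control and replicate 3 lay between control replicates 2 and 3. The log2 fold change was −0.70 ± 0.36 (unadjusted p = 0.0851, edgeR), or −1.19 without knockdown replicate 3, past the unadjusted threshold, and −0.40 without replicate 1. ABCA1 was also the least abundant of the 28, with 97 counts in its lowest library against at least 518 for any other gene here, and 0.717 FPKM in the controls.

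The knockdown libraries were not alike. The median of the 28 log2 CPM values above the control mean was 0.44, 0.06 and 0.51 in knockdown libraries 1 to 3, and 0.20, −0.07 and −0.14 in control replicates 1 to 3. Knockdown replicate 2 was the lowest knockdown library for 21 of the 28 genes, and control replicate 1 the highest control for 23. Knockdown replicates 1 and 3 exceeded control replicate 1 for 21 and 19 of the 28, and replicate 2 did so for 9. The summed level of the 28 was 4240, 3169 and 4121 CPM in knockdown and 3249, 2703 and 2608 CPM in control libraries. On this TMM-scaled measure knockdown replicate 2 was below control replicate 1, at TMM factors of 1.05 and 1.02. That order depends on the scaling. The exact two-sided permutation test of a single gene with 3 against 3 libraries allows no p below 0.1, which the 7 genes with separate groups reached. Replicate 2, with the smallest difference in sterol genes, had the least CALR left (6.39%), and replicate 1 had the most CALR left (47.5%). How the remaining CALR bears on the sterol genes was not tested.

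**Figure D3:**
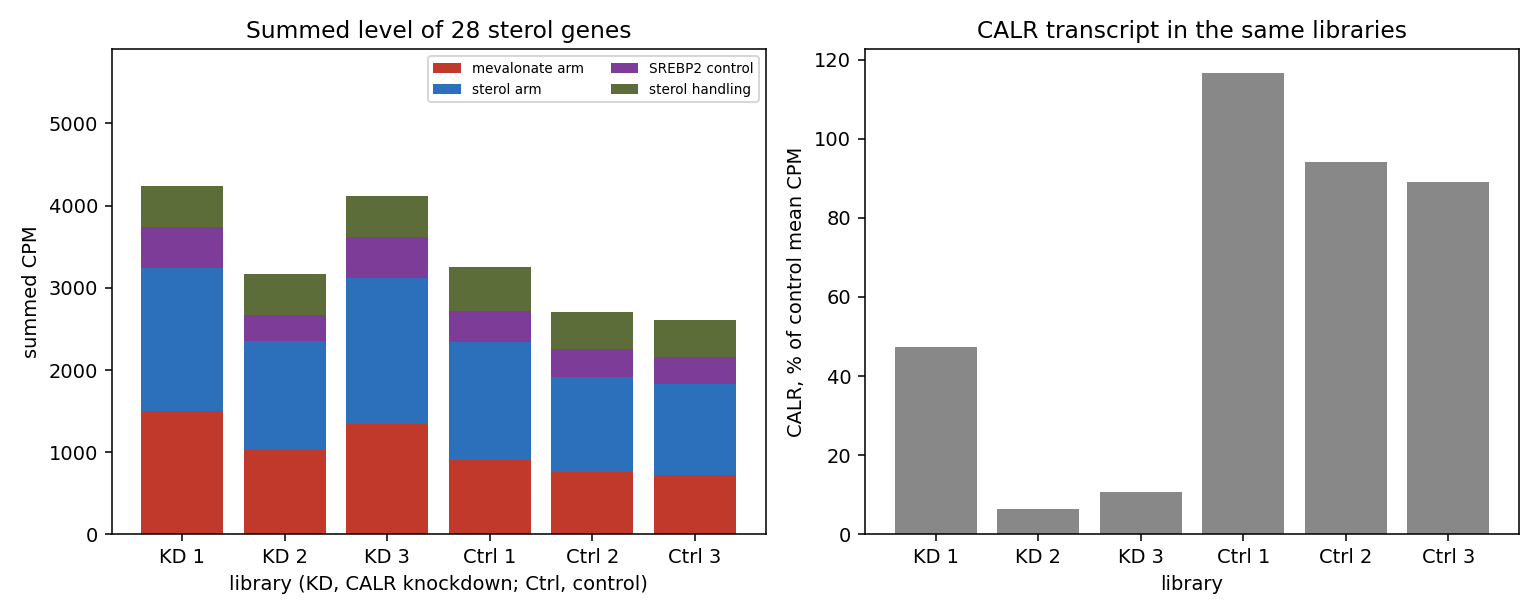
Left, summed CPM of the 28 genes in each library (KD, CALR knockdown; Ctrl, control), stacked by role. Right, CALR CPM in the same libraries as a percentage of the control mean. The sum runs from 2608 CPM in control replicate 3 to 4240 CPM in knockdown replicate 1, and knockdown replicate 2, with CALR at 6.39%, has the lowest sum of the 3 knockdown libraries.

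Without knockdown replicate 2, 12 of the 28 passed edgeR's adjusted threshold, all higher in knockdown, where 7.76% of all genes were higher and 7.75% lower. Those 12 were FDPS, LSS, ACAT2, MVD, MVK, FDFT1, HSD17B7, NSDHL, EBP, DHCR7, SCAP and SREBF2. At an unadjusted p below 0.05, 15 were then higher, those 12 with IDI1, INSIG1 and PMVK, and 2, SC5D (−0.49) and STARD4 (−0.52), lower, beside 17.9% and 17.7% of all genes. Without knockdown replicate 1, 7 genes of the 28 were higher and 0 lower at that threshold (5.33% and 5.39% of all genes), and without replicate 3, 8 were higher and 1, ABCA1, lower (7.83% and 9.03%). After adjustment 0 of the 28 passed in either case, where 0 of all genes passed without replicate 1 and 0.125% (higher) and 0.694% (lower) without replicate 3. FDPS, LSS, ACAT2, MVD, MVK and FDFT1 were higher at that unadjusted threshold under all 17 other ways of fitting the data, leaving out each library included. NSDHL missed it without control replicate 3 (0.60).

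Fold changes of the sterol genes went with the GC content of their transcripts. The 14 genes above the median GC content of the 28 (47.7%) had a median log2 fold change of 0.61 and were all positive, and the 14 at or below it had a median of 0.13, with 9 positive. Pearson's r between GC content and log2 fold change was 0.55 and Spearman's rho 0.63, across the 28 genes as a description, since all share the same 6 libraries. Over 16294 tested genes r was 0.21, and the medians above and at or below 47.7% GC were 0.14 and −0.15. Library deviations of all genes from the control mean correlated with GC content at 0.24, −0.18 and 0.46 in knockdown libraries 1 to 3 and 0.03, 0.23 and −0.26 in the controls. Knockdown replicate 2 was below replicates 1 and 3 on this measure as on the sterol genes. The part of GC content in the result was not tested beyond the correction that follows.

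After each library's GC trend was removed, 12 of the 28 were higher at an unadjusted p below 0.05 and 0 lower, where 14.1% and 6.59% of all genes were. The median over the 28 was 0.44, against 0.08 over all genes. The 9 genes of the uncorrected fit were among the 12, with FDPS at 0.92, ACAT2 at 0.90, HSD17B7 at 0.83, LSS at 0.79 and MVD at 0.77, and DHCR7, MSMO1 and SCAP were added. After adjustment 0 of the 28 passed in edgeR, and of all genes 0.0736% were higher and 0.00614% lower.

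**Figure D4:**
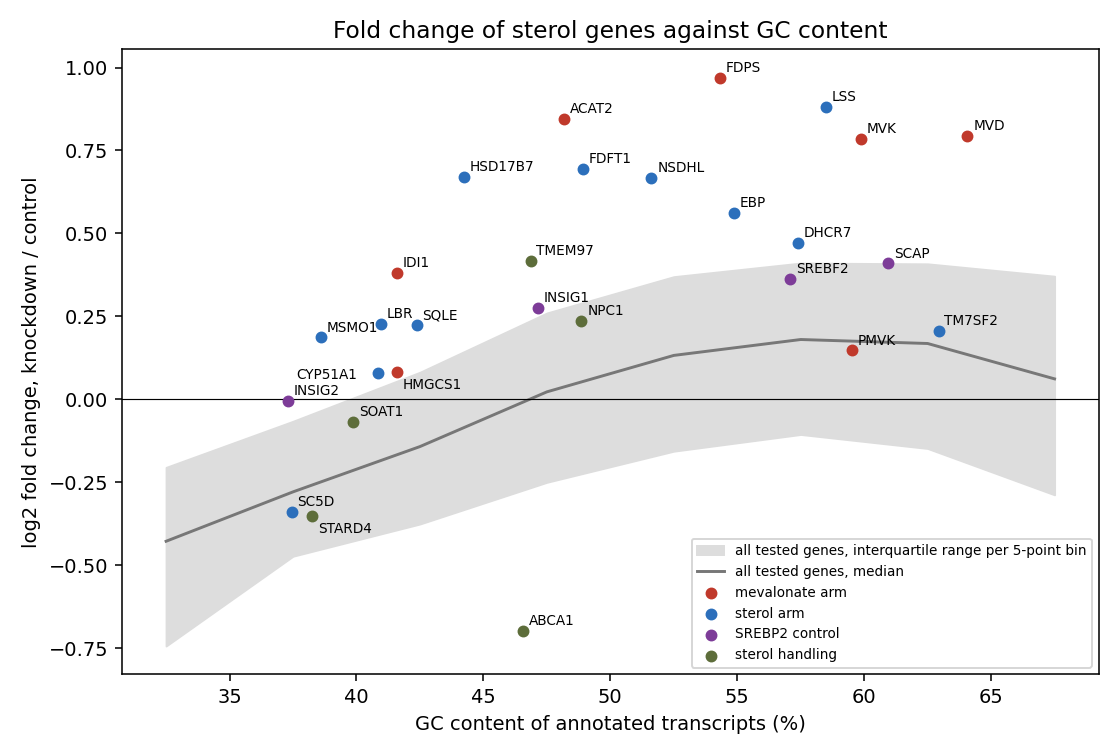
Log2 fold change of knockdown over control (vertical axis) against the GC content of annotated transcripts in percent (horizontal axis) for the 28 genes, coloured by role. The grey line and band are the median and interquartile range of all tested genes in bins of 5 percentage points. FDPS, LSS, MVK, MVD, ACAT2, FDFT1, NSDHL, HSD17B7 and IDI1 lie well above the band and ABCA1 below it. Other genes, among them EBP, TMEM97, MSMO1, LBR and SQLE, also lie above the band.

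Related genes outside the 28 were taken from lists by function, also drawn up with earlier results of these data known. Their counts at an unadjusted p below 0.05 stand against 8.17% of all tested genes higher and 7.36% lower. In the branch that leads from isoprenes to dolichol, ubiquinone and prenylated proteins, 2 of 16 genes (12.5%) were higher and 0 were lower, with a median of 0.07. FNTB, a subunit of protein farnesyltransferase, which uses the product of FDPS, was at 26.5, 18.6 and 22.9 CPM in knockdown and 13.2, 11.5 and 11.4 CPM in control libraries (0.92 ± 0.20). RABGGTA, of the transferase that prenylates Rab proteins, was at 0.60 ± 0.22, and groups were apart for both genes. GGPS1, which makes geranylgeranyl diphosphate, was at −0.33 ± 0.16 with all knockdown libraries below the controls. Of 13 genes for SREBP cleavage and sterol-regulated ER degradation, 1 was higher (7.69%) and 0 lower (median 0.03). That 1 was UFD1L (0.42 ± 0.19), part of the complex that extracts proteins from the ER membrane. GGPS1, UFD1L, LRP1, NPC2, CYP27A1, SCD and SREBF1 were chosen after their values were seen.

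Of 19 tested genes for sterol uptake, transport, storage and export, 4 were higher (21.1%) and 1 lower (5.26%), with a median of 0.16. LRP8, a lipoprotein receptor, was at 39.0, 36.2 and 24.5 against 21.9, 15.2 and 16.1 CPM with groups apart (0.91 ± 0.24). The endocytic receptor LRP1 (0.88 ± 0.29), the lysosomal sterol carrier NPC2 (0.63 ± 0.23) and the sterol hydroxylase CYP27A1 (0.72 ± 0.28) were higher with overlapping groups. GRAMD1B, an ER sterol transporter, was lower but close to 0 in both groups, at means of 0.207 and 1.25 CPM. Among 8 tested LXR receptors and targets, which include ABCA1, 1 was higher (12.5%) and 0 lower. That was SCD, a desaturase also under SREBP control (0.61 ± 0.26).

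Of 15 genes of fatty acid synthesis linked to SREBP1, counting MVD, 6 were higher (40%) and 0 were lower, and the median was 0.57. FASN, the fatty acid synthase, was at 301, 219.6 and 264 CPM in knockdown libraries 1 to 3 and 183, 159 and 144 CPM in the controls (0.69 ± 0.18). ME1 and IDH1, cytosolic enzymes that supply NADPH, were at 0.90 ± 0.21 and 0.58 ± 0.16, with groups apart for all 3. SREBF1, which encodes SREBP1, had a log2 fold change of 0.36 ± 0.32 with overlapping groups. Except for the lists of uptake and fatty acid genes, these shares were near those of all genes. Adjusted p-values from edgeR for the genes named in these lists were at least 0.164.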

How the data were processed

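RNA of 6 libraries was sequenced, and the authors deposited read counts and FPKM values per gene. The submitters' processing notes name TopHat2, FastQC 0.9.5 and the build GRCh38. Which counting program, strand setting or annotation was used is not given in the sources used here. Symbols and identifiers are those of the deposited table, and coordinates, overlaps and GC content (over annotated transcripts, 30871 of 31582 genes matched) are from GENCODE 29. The members and gene lists were chosen with earlier results of these data known.

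Counts were filtered with edgeR's filterByExpr and scaled with TMM, and knockdown was compared with control by the quasi-likelihood F-test in edgeR 4.0.16 (R 4.3.3), with no covariate and Benjamini-Hochberg adjustment over 16394 genes at 0.05. The script was tested on simulated data. Errors are the absolute log2 fold change over the square root of F, log2 CPM has a prior count of 2, and CPM uses the TMM-scaled sizes. Libraries of 1 group differed by more than counting noise (chi-square per tested gene 11.8 to 199), so none is a copy of another; this does not show that they are separate cultures.

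Genes named were CALR, all 28 members and, from each other list, up to 3 genes at an unadjusted p under 0.05 with groups apart; UFD1L, LRP1, NPC2, CYP27A1, SCD, GGPS1, SREBF1, LUM and KDR were added after their values were seen. MMAB, TCP1, SOD2 and RUSC1-AS1 are named because they share exon bases with members, and CDH1, ESR1, PTPRC, PDGFRA, ALB and STAR as defining markers. The markers PGR, FOXA1, EPCAM, KRT8, KRT18, KRT19, XBP1 and ERBB2 were added after their values were seen. HBB and TTR are named as planned markers that were not among the deposited genes. C12orf49 and UFD1L are the symbols used in the deposited table for SPRING1 and UFD1. Alternatives were DESeq2's size factors, library size alone, DESeq2 1.42.0, limma-voom (limma 3.58.1), no filter, a CPM of at least 1 throughout, omission of each library in turn, a block for replicate number, a natural spline on GC content (5 degrees of freedom) removed from each library with and without that block, and limma on deposited FPKM after log2(FPKM + 1) or log2(FPKM + 0.1), where 3 libraries or more reached an FPKM of 1.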

Additional observations from a re-analysis of the deposited data

How the results depend on the processing

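Direction held for 19 of the 28 genes under all 17 alternatives, and for ABCA1 under the 15 that included it. The other 8 reversed under at least 1. INSIG2 was at 0.0106 with DESeq2's size factors and in DESeq2, 0.0135 with no filter, 0.47 with the GC trend removed, 0.35 with that and the replicate block, and −0.32 to 0.15 with 1 library left out. In the same 2 GC fits SC5D was at 0.0629 and 0.0351, STARD4 at 0.0036 and 0.0007, and SOAT1 at 0.22 and 0.21. With library size alone, log2(FPKM + 1) and log2(FPKM + 0.1), HMGCS1 was at −0.0584, −0.0412 and −0.0427, PMVK at −0.0157, −0.0453 and −0.0497, and CYP51A1 at −0.0643, −0.0526 and −0.0533. With 1 library left out, HMGCS1 ranged from −0.0091 to 0.22, PMVK from −0.0748 to 0.42, LBR from −0.0799 to 0.51 and SOAT1 from −0.20 to 0.0534. The cause was not tested. Library size alone put the median of all genes at −0.13, log2(FPKM + 1) at −0.08 and log2(FPKM + 0.1) at −0.11. HMGCS1, PMVK and CYP51A1 were above these medians. The median of all genes was 0.08 with the GC trend removed and 0.06 with that and the replicate block. SC5D and STARD4 were below it in both fits. Relative to the median of all genes the 28 stood at 0.24 to 0.43 in every alternative.

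Over all genes, the counts past the adjusted threshold were 290 higher and 240 lower with DESeq2 (10 genes without an adjusted p), 12 and 1 with the GC trend removed, 80 and 26 with that and the replicate block, 431 and 557 with no filter (among them ACAT2, FDFT1, FDPS, LSS, MVD and MVK, where the GC and block fit had ACAT2 and FDPS), and 0 to 1303 higher and 0 to 1301 lower with 1 library left out (most without knockdown replicate 2). Among the 28 at an unadjusted 0.05, with the GC trend removed and the replicate block 15 were higher and 1 lower, where 12.9% and 7.28% of all genes were. With 1 library left out 6 to 15 were higher and 0 to 2 lower, from 6 without control replicate 3 (2.87% of all genes higher, 4.36% lower) to 15 without knockdown replicate 2 (17.9% and 17.7%). ABCA1 was the 1 lower gene in that GC and block fit and without knockdown replicate 3 (9.03% of all genes lower). It was also the 1 lower gene with library size alone (11%), in limma-voom (8.95%), with no filter (6.18%) and with the replicate block (7.5%). In the FPKM fits, whose filter removed ABCA1, the 1 lower gene was SC5D (10.7% and 10.5%). Deviations of same-numbered libraries from their group means correlated at 0.20, −0.12 and −0.22. The labels state no pairing. With 3 libraries per group, these values cannot show whether same-numbered libraries were prepared together. With the replicate block 8 genes were higher, IDI1 no longer among them, where 5.98% of all genes were, and 0 passed the adjusted threshold.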
